A study of Mus musculus with 4 samples.

Results

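The 11 laminin chains and 26 integrin subunits listed in a gene expression table of mouse inguinal white adipose tissue (ingWAT) were taken by a rule on their gene symbols, 37 of the 19030 genes listed, and the rule uses no measured value. They were described as 11 laminins, 5 leukocyte integrins (*Itgal*, *Itgam*, *Itgax*, *Itgb2* and *Itgb7*) and 21 other integrins. RNA-seq had been made from ingWAT of control mice (Ctrl, 2 libraries) and of adipose-specific *Oct3* knockout mice (cKO, 2 libraries), all C57BL/6, 3 months old and housed in the cold at 4°C, to ask what the loss of *Oct3* changed in the tissue. In cKO mice the floxed exon of *Oct3* (official symbol *Slc22a3*, an organic cation transporter that takes up norepinephrine) was removed by a Cre recombinase under the adiponectin promoter, which is active in adipocytes, so the other cells of the tissue kept the gene. The labels name the Ctrl genotype only as control, and the number of mice behind a library is not given in the sources used here.

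Laminins are cross-shaped proteins of the basement membrane, the thin sheet of matrix that surrounds each adipocyte, muscle fibre and nerve sheath and underlies the vessel wall, and each is built from an alpha, a beta and a gamma chain. Integrins are receptors made of an alpha and a beta subunit that span the cell membrane, bind matrix proteins or proteins on other cells, and link them to the actin skeleton through adaptor proteins. The integrins with the β2 or β7 subunit are carried by white blood cells, where they serve adhesion, homing and phagocytosis. *Itgad*, *Itga4* and *Itgae*, alphas that pair with β2 or β7, were counted here among the other integrins.

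The levels are given in FPKM, fragments scaled to transcript length and to the mapped total, so genes can be compared with each other. *Slc22a3*, the targeted gene, measured 16.95 and 17.68 FPKM in Ctrl and 9.07 and 9.50 in cKO (log2 fold change -0.83, standard error 0.066, adjusted p = 0.000439 by limma). The table gives no read numbers. From the steps between its low values the libraries were estimated at 17700000 to 19000000 reads. For each library the depth was chosen that made the most low values whole reads, within 0.1 of a read. The share reached was 59.3 to 64.5%, which does not test the estimate, since the choice made it as large as possible. Markers of other tissues and cells differed between the groups: 14 skeletal muscle genes together held 2533 and 1702 FPKM in Ctrl and 12.1 and 9.34 in cKO, and 10 B cell genes 277.8 and 308.8 in Ctrl and 434.9 and 487.0 in cKO. Of 10 white adipocyte genes, which held 23000 and 23240 FPKM in Ctrl and 19170 and 19350 in cKO, 5 were called lower and none higher, and all 10 genes of brown and beige adipocytes were called higher in cKO. In bulk tissue, fewer cells of a type and less RNA per cell cannot be told apart, and p-values measure only the spread between these libraries, which nothing in the labels says were separate animals.

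A gene was called higher or lower when limma, fitted over the 12658 genes with a mean of at least 1 FPKM, gave an adjusted p under 0.05 between cKO and Ctrl. The test covered 27 of the 37 members and called 5 of them higher in cKO and 11 lower, leaving 11 without a call. Over all genes tested, 25.8% were called, 12.0% higher and 13.8% lower. Both cKO libraries lay above both Ctrl libraries in 8 of the 27 and below in 14, beside 31.9% and 34.6% of all genes tested. The calls ran lower among the laminins, mostly lower among the other integrins, and higher among the leukocyte integrins. Of 7 laminins tested, 5 fell and none rose (median log2 fold change -0.39). Of 15 integrins outside the leukocyte set, 6 fell and 1 rose (median -0.11), and of the 5 leukocyte integrins 4 rose and none fell (median 0.45). The median over all genes tested was -0.01. Fold changes are those of log2(FPKM + 1), which understates the change of genes at low levels. The 2 libraries of a group differed by a median of 0.079 in Ctrl and 0.076 in cKO on this scale over the 27 members, while the median size of the members' change between the groups was 0.35.

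**Figure D1:**
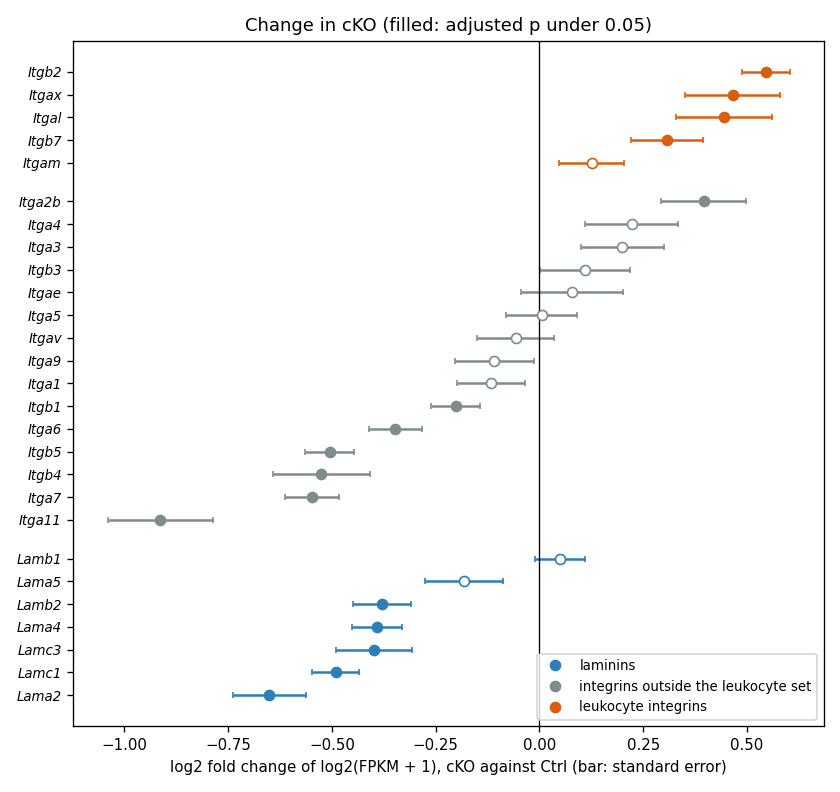
Log2 fold change of log2(FPKM + 1) in cKO against Ctrl for the 27 members tested (x axis), 1 member a row, with the standard error as the bar and a filled point where the adjusted p was under 0.05. Of the laminins at the bottom 5 lie filled on the left, of the leukocyte integrins at the top 4 lie filled on the right, and the other integrins run from -0.91 for *Itga11* to 0.40 for *Itga2b*.

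The bases just before the gene start are shown for 2 leukocyte integrins, of which *Itgax* was called higher and *Itgam* was not called, and for 3 members called lower, so that they can be read side by side. The promoter table of RefSeq (GRCm38.p6) held 23 of the 37 members. The windows run over the 150 bases before the start that this table uses, 5′ to 3′ on the strand of the gene, all on the plus strand here. For *Itgax* and *Lamb2* that start lies a few bases inside the span of the gene, which begins at 128129526 and 108479847. They are *Itgam* (chr7:128062490-128062639) and *Itgax* (chr7:128129400-128129549) of the leukocyte set, then *Itga11* (chr9:62677705-62677854), *Itgb5* (chr16:33829515-33829664) and *Lamb2* (chr9:108479712-108479861), which were called lower. Capitals mark the letters GAGGAA, the core that the myeloid and B cell factor PU.1 and its relatives can bind, and GGGCGG, the GC box, each on either strand.
Itgam: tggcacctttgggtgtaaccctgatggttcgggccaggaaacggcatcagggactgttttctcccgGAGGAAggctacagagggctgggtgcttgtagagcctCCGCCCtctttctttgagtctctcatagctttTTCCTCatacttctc
Itgax: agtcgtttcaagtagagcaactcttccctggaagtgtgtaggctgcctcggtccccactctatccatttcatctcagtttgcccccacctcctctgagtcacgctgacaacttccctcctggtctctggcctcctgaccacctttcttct
Itga11: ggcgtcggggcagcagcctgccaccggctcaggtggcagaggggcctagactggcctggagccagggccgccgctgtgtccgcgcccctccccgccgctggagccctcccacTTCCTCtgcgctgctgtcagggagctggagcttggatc
Itgb5: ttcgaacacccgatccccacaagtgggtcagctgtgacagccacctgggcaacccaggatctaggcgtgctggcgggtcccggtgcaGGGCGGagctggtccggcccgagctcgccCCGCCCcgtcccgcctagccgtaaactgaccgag
Lamb2: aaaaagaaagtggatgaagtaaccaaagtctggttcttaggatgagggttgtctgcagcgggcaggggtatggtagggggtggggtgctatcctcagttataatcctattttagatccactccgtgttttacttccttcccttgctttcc

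The *Itgam* window held GAGGAA in 2 places and GGGCGG in 1, and the *Itgax* window held neither. Of the members called lower, *Itga11* had 1 GAGGAA, *Itgb5* had 2 GGGCGG and *Lamb2* had neither. Each start in the table gave a window, and 3 members had more than 1 start. Over all members in the table, GAGGAA stood in 1 of 3 leukocyte integrin windows, 7 of 17 windows of the other integrins and 2 of 6 laminin windows. It stood in 14.5% of the 32851 windows of all genes. GGGCGG stood in 1 of 3, 4 of 17 and 2 of 6, and in 28.6% of all windows. A match is a description of the sequence, not a site.

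The laminin alpha chains carry the domains that cell receptors bind, and *Lama4*, the chain of adipocyte and vessel basement membranes, was the most abundant of them. *Lama4* (chr10:38965515-39110188) stood at 29.98 and 28.32 FPKM in Ctrl and at 22.17 and 21.80 in cKO. The groups did not overlap, and *Lama4* fell at a log2 fold change of -0.39 (standard error 0.0601, adjusted p = 0.00421). *Lama2*, the alpha chain of muscle fibres and Schwann cells whose loss causes a congenital muscular dystrophy, showed the largest fall of the laminins. It stood at 7.14 and 6.29 FPKM in Ctrl and at 3.89 and 3.92 in cKO (log2 fold change -0.65, standard error 0.0878, adjusted p = 0.00254). Without Ctrl replicate 1 neither passed, at -0.35 (adjusted p = 0.0588) for *Lama4* and -0.57 (adjusted p = 0.0501) for *Lama2*, by limma with Benjamini-Hochberg adjustment.

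Of the 10 white adipocyte genes given above, 5 were called lower and 5 were not called. Their part in the value of *Lama4* was not tested. *Lama5*, a broadly expressed chain of mature basement membranes, stood at 3.07 and 3.05 FPKM in Ctrl and 2.49 and 2.67 in cKO and was not called (log2 fold change -0.18, adjusted p = 0.199 by limma), although the groups did not overlap. *Lama3*, a chain of the skin, was at 0.22 to 0.33 FPKM in the 4 libraries, and *Lama1*, the chain of the early embryo, at 0 to 0.01, and neither was tested. Together the 5 alpha chains held 40.51 and 37.99 FPKM in Ctrl and 28.78 and 28.62 in cKO. *Lama4* made up 74.0 and 74.5% of that sum in Ctrl and 77.0 and 76.2% in cKO, and *Lama2* 17.6 and 16.6% in Ctrl and 13.5 and 13.7% in cKO. The groups thus differed in the sum of the alpha chains and, by a few percentage points, in the chains that made it up.

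Of the beta chains, *Lamb1* and *Lamb2* were close in level in Ctrl and parted in cKO. *Lamb1* (chr12:31265146-31329644) stood at 27.32 and 26.08 FPKM in Ctrl and at 28.35 and 26.97 in cKO. The groups overlapped, and *Lamb1* was the single laminin tested with a positive log2 fold change (0.05, standard error 0.061, adjusted p = 0.597 by limma). *Lamb2*, the beta chain of the synapse between nerve and muscle, of the kidney filter and of arterial walls, stood at 26.40 and 24.08 FPKM in Ctrl and at 19.74 and 18.57 in cKO. It fell in cKO at a log2 fold change of -0.38 (standard error 0.0699, adjusted p = 0.00827). The ratio of *Lamb1* to *Lamb2* was 1.03 and 1.08 in Ctrl and 1.44 and 1.45 in cKO, and the sum of the beta chains 54.22 and 50.87 FPKM against 48.78 and 46.47. Leaving out Ctrl replicate 1 ended the call of *Lamb2* (log2 fold change -0.32), as did dropping the filter on low values (adjusted p = 0.0503 by limma). *Lamb3*, the beta chain of the skin laminin, was at 0.50 to 0.93 FPKM and was not tested.

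*Lamc1*, the gamma chain shared by most laminins, was the most abundant laminin. *Lamc1* (chr1:153218922-153332786) stood at 39.73 and 38.12 FPKM in Ctrl and at 27.15 and 27.66 in cKO. The groups lay much farther apart than the libraries of either group, at a log2 fold change of -0.49 (standard error 0.0571, adjusted p = 0.0015), and the call held under each of the 12 alternative settings tried. *Lamc3*, a less widespread gamma chain, fell from 3.40 and 3.30 FPKM to 2.26 and 2.34 (log2 fold change -0.40, standard error 0.0923, adjusted p = 0.0197). Its call was lost without Ctrl replicate 1, Ctrl replicate 2 or cKO replicate 1, at log2 fold changes of -0.38, -0.42 and -0.38. Without a filter on low values it was lost too (adjusted p = 0.0578 by limma). *Lamc1* made up 92.0 to 92.3% of the sum of *Lamc1* and *Lamc3* in the 4 libraries, and that sum was 43.13 and 41.42 FPKM in Ctrl and 29.41 and 30 in cKO. Over the 5 laminins called lower, leaving out Ctrl replicate 1 left 1 call, *Lamc1*.

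**Figure D2:**
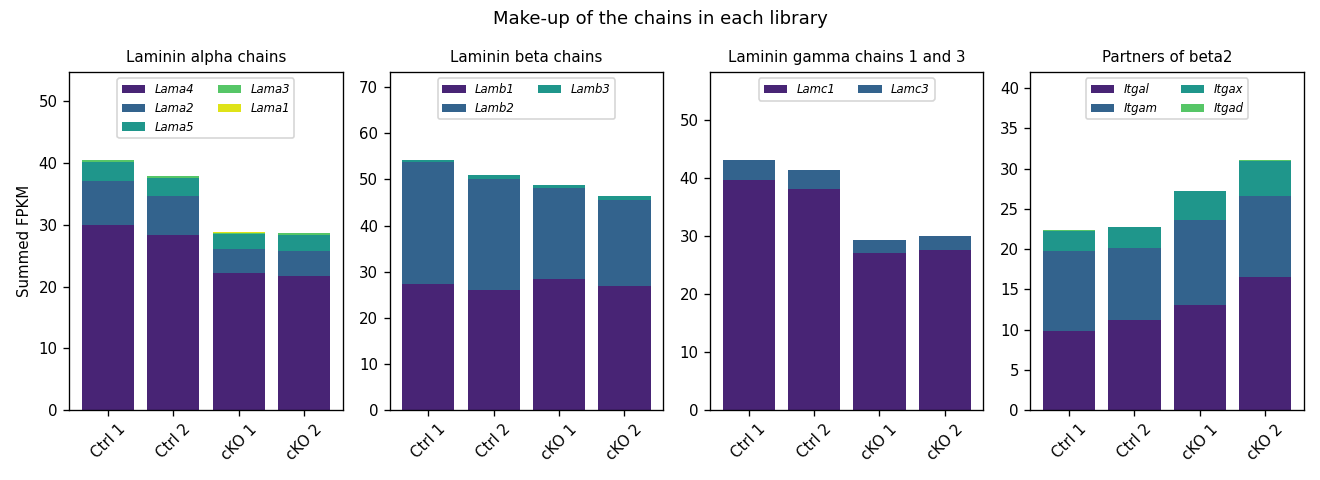
Summed FPKM (y axis, from 0) of the laminin alpha chains, the beta chains, *Lamc1* with *Lamc3*, and the integrin alphas that pair with β2, stacked by gene, in each of the 4 libraries (x axis). The stacks of the alpha chains and of *Lamc1* with *Lamc3* are lower in both cKO libraries, *Lamb1* keeps its height while *Lamb2* shrinks, and the β2 partners sum to 22.4 and 22.79 FPKM in Ctrl and 27.22 and 31.07 in cKO.

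The integrins that bind laminin are α3β1, α6β1, α7β1 and α6β4. *Itga7*, the subunit of muscle fibres that anchors them to laminin, was the most abundant alpha subunit of the 37 members. *Itga7* (chr10:128933421-128958286) stood at 33.07 and 30.64 FPKM in Ctrl and at 20.99 and 21.93 in cKO. The groups were well apart, at a log2 fold change of -0.55 (standard error 0.0646, adjusted p = 0.00156), and the call held in all 12 alternative settings. In the annotation 11 members have an exon that meets an exon of another gene. An exon of *Itga7* overlaps one of *Mettl7b* on the opposite strand, which was at 0.43 to 1.27 FPKM. The strand used in counting is not given in the sources used here, so reads from such partners cannot be told apart. In the cKO libraries the 14 skeletal muscle genes summed to 0.0057 and 0.00441 of their Ctrl mean, with all 12 of them that were tested called lower, and *Itga7* stood there at 0.674 of its Ctrl mean and *Lama2* at 0.582. The part of muscle RNA in the fall of *Itga7* and *Lama2* was not tested.

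*Itga6*, a laminin-binding subunit of endothelium and epithelium, stood at 16.14 and 15.73 FPKM in Ctrl and 11.97 and 12.67 in cKO (log2 fold change -0.35, standard error 0.0649, adjusted p = 0.00885). Its partner in epithelium and Schwann cells, *Itgb4*, fell from 3.63 and 3.18 FPKM in Ctrl to 1.83 and 2.30 in cKO (log2 fold change -0.53, standard error 0.117, adjusted p = 0.0167). *Itga3*, found in epithelium, was not called, at 2.11 and 1.96 FPKM in Ctrl and 2.50 and 2.47 in cKO (log2 fold change 0.20, adjusted p = 0.185 by limma). Of the 3 laminin-binding alphas 2 fell and 1 was not called, beside 13.8% of all genes tested called lower. The calls of *Itga6* and *Itgb4* were lost without Ctrl replicate 1 (log2 fold changes -0.33 and -0.45) and without Ctrl replicate 2 (-0.36 and -0.60). That of *Itgb4* was also lost without cKO replicate 1 (-0.41) and without a filter on low values (adjusted p = 0.0804 by limma). Beside these members, 10 endothelial genes summed to 326.9 and 321.0 FPKM in Ctrl and 267.6 and 285.7 in cKO with 6 of 10 called lower, and 10 Schwann cell genes to 300.7 and 273.1 against 134.4 and 147.7 with 6 of 8 tested called lower and 1 higher. Keratinocyte genes (9 listed) summed to 9.63 and 9.77 FPKM in Ctrl and 9.22 and 9.44 in cKO. Of the 3 tested, 1 was called lower and 1 higher, so the sum hides moves in both directions. Gland epithelium genes (8 listed) summed to 3.16 and 3.41 FPKM in Ctrl and 2.49 and 2.54 in cKO. All 8 were under the level tested. The part of these cells in the laminin and integrin values was not tested.

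*Itga11*, the collagen receptor subunit of fibroblasts, had the largest log2 fold change in size among the 27 members tested. *Itga11* (chr9:62677855-62783979) stood at 3.36 and 2.59 FPKM in Ctrl and at 1.11 and 1.09 in cKO, about 314 and 236 estimated reads against 97 in each. Both cKO libraries lay far below both Ctrl libraries, at a log2 fold change of -0.91 (standard error 0.126, adjusted p = 0.00281), and the call held in every alternative that kept the gene. *Itga1*, the collagen receptor subunit of smooth muscle and vessel, was not called (6.47 and 7.12 FPKM in Ctrl, 6.01 and 6.36 in cKO). Of 10 smooth muscle and pericyte genes, 4 were called lower and 1 higher. The other collagen-binding alphas, *Itga2* of platelets and epithelium and *Itga10* of cartilage, were at 0.15 to 0.57 FPKM and were not tested. Beside *Itga11*, 10 genes of fibroblasts and progenitors summed to 1786 and 1538 FPKM in Ctrl and 1028 and 1039 in cKO, with 8 of 10 called lower, and their part in its value was not tested.

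The RGD-binding integrins recognise the peptide of that name in fibronectin, vitronectin and related proteins. Beside β1, the most abundant subunit of this group was *Itgb5*, the partner of αv in the vitronectin receptor αvβ5, and it fell. *Itgb5* (chr16:33829665-33949338) stood at 30.08 and 29.22 FPKM in Ctrl and at 20.19 and 21.00 in cKO (log2 fold change -0.51, standard error 0.0589, adjusted p = 0.00152), a call that held in all 12 alternative settings. Its alpha partner *Itgav* was at 4.67 and 5.20 FPKM in Ctrl and 4.43 and 4.98 in cKO and was not called, and neither was *Itga5*, the fibronectin receptor subunit (7.29 and 6.59 against 7.31 and 6.63). *Itgb3*, the other vitronectin receptor beta subunit, was not called at 2.63 to 3.26 FPKM. *Itga8*, *Itgb6* and *Itgb8* were at 0.01 to 0.55 FPKM and were not tested. The fall of *Itgb5* thus came without a called change of *Itgav*, the alpha subunit it pairs with.

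*Itga2b*, the alpha subunit of the fibrinogen receptor of platelets and megakaryocytes, was the only integrin outside the leukocyte set called higher. It stood at 2.59 and 2.21 FPKM in Ctrl and at 3.56 and 3.37 in cKO (log2 fold change 0.40, standard error 0.102, adjusted p = 0.0285). The call was lost on leaving out any of the 4 libraries, at log2 fold changes from 0.31 to 0.48. Without a filter on low values it was lost too (adjusted p = 0.0894 by limma). Of 8 platelet genes, 6 were under the level tested. *Ppbp*, a platelet chemokine, rose from 0.81 and 1.14 to 3.30 and 2.46 FPKM, while *Pf4*, a chemokine stored in platelets, was not called at 92.16 and 78.25 FPKM in Ctrl and 82.99 and 66.43 in cKO. What part platelets have in the level of *Itga2b* was not tested.

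*Itgb1*, the beta subunit shared by most matrix-binding integrins, was the most abundant of all members. *Itgb1* stood at 74.09 and 75.29 FPKM in Ctrl and at 62.73 and 66.95 in cKO, the smallest called change (log2 fold change -0.20, standard error 0.0584, adjusted p = 0.043). The groups did not overlap, but the call was lost on leaving out any 1 library (log2 fold changes from -0.25 to -0.16). Without a filter on low values or without a trended prior it was lost too (adjusted p = 0.0806 and 0.0921 by limma). The alphas whose main partner is β1 summed to 72.69 and 69.04 FPKM in Ctrl and 53.59 and 55.39 in cKO. *Itga7* took 45.5 and 44.4% of that sum in Ctrl and 39.2 and 39.6% in cKO, *Itga6* held 22.2 to 22.9% in all 4 libraries, and *Itga11* went from 4.62 and 3.75% to 2.07 and 1.97%. *Itga9*, a receptor subunit for tenascin and for ligands of lymphatic valves, was not called at 2.71 to 3.24 FPKM.

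**Figure D3:**
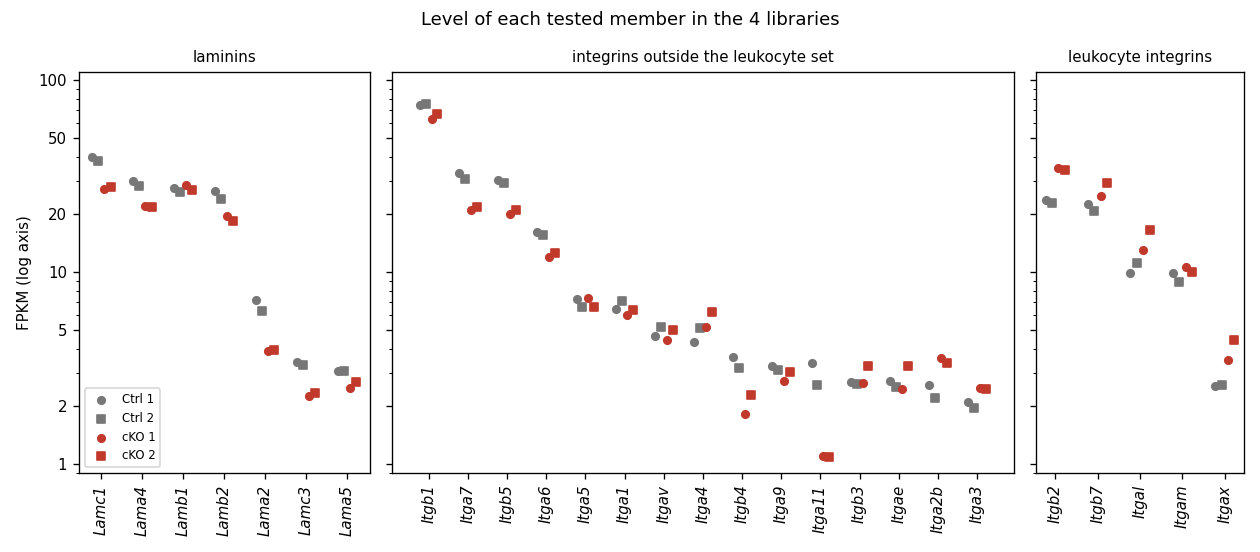
FPKM (y axis, log scale) of the 27 members tested in the 4 libraries, with grey points for Ctrl and red points for cKO, circles for replicate 1 and squares for replicate 2, ordered by the Ctrl mean within the 3 groups. *Itgb1* stands highest at 62.73 to 75.29 FPKM, and *Itgb2* rises from 22.83 and 23.88 in Ctrl to 34.29 and 34.75 in cKO.

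All 5 leukocyte integrins were higher in both cKO libraries than in both Ctrl libraries, and 4 of them were called. Over all genes tested, 31.9% had both cKO libraries above both Ctrl libraries, and 12.0% were called higher. *Itgb2*, the β2 subunit whose loss causes leukocyte adhesion deficiency, stood at 23.88 and 22.83 FPKM in Ctrl and at 34.75 and 34.29 in cKO. *Itgb2* (chr10:77530329-77565708) had a log2 fold change of 0.54 (standard error 0.0579, adjusted p = 0.00116), and its call held in all 12 alternative settings. Its alpha partners did not all move as far. *Itgal*, the partner in LFA-1, the adhesion receptor of lymphocytes, stood at 9.88 and 11.23 FPKM in Ctrl and 13.04 and 16.57 in cKO (log2 fold change 0.45, standard error 0.115, adjusted p = 0.0295). *Itgax*, the partner found on dendritic cells and some macrophages (CD11c), stood at 2.55 and 2.60 FPKM in Ctrl and 3.49 and 4.43 in cKO (log2 fold change 0.47, standard error 0.114, adjusted p = 0.0243). *Itgam*, the partner of macrophages and neutrophils (CD11b), was not called, at 9.86 and 8.91 FPKM in Ctrl and 10.64 and 10.00 in cKO (log2 fold change 0.13, standard error 0.0774, adjusted p = 0.28 by limma).

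The calls of *Itgal* and *Itgax* were lost without Ctrl replicate 1 (log2 fold changes 0.36 and 0.46), Ctrl replicate 2 (0.53 and 0.48) or cKO replicate 2 (0.28 and 0.33). Both were also lost without a filter on low values (adjusted p = 0.135 and 0.102 by limma). That of *Itgal* was lost without a trended prior too (adjusted p = 0.0544 by limma). cKO replicate 2 was the highest of the 4 libraries in both genes. Of the FPKM of the β2 partners, *Itgal* held 44.1 and 49.3% in Ctrl and 47.9 and 53.3% in cKO, and *Itgam* 44.0 and 39.1% in Ctrl and 39.1 and 32.2% in cKO, so these shares overlapped or touched between the groups. *Itgax* held 11.4% in both Ctrl libraries and 12.8 and 14.3% in cKO. *Itgad*, the remaining partner of β2, was at 0.05 to 0.11 FPKM and was not tested. The sum of the alphas over *Itgb2* was 0.938 and 0.998 in Ctrl and 0.783 and 0.906 in cKO.

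*Itgb7*, the beta subunit of the gut-homing receptor α4β7 and of αEβ7, rose from 22.75 and 20.79 FPKM to 25.10 and 29.33 (log2 fold change 0.31, standard error 0.087, adjusted p = 0.0404). The call was lost when FPKM were rescaled to a common sum (adjusted p = 0.0515 by limma). Without a filter on low values or without a trended prior it was lost too (adjusted p = 0.138 and 0.0749 by limma). The call also ended without Ctrl replicate 1, Ctrl replicate 2 or cKO replicate 2, at log2 fold changes of 0.37, 0.24 and 0.20. *Itga4*, its partner in α4β7 and the partner of β1 in the receptor for VCAM-1, was not called at 4.34 and 5.14 FPKM in Ctrl and 5.16 and 6.24 in cKO. *Itgae*, its partner on lymphocytes within epithelium, was not called at 2.46 to 3.24 FPKM. *Itgb7* thus stood well above its 2 alpha partners in every library, their sum being 0.304 to 0.369 of it.

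The markers of white blood cells did not all move with the leukocyte integrins. All 10 B cell genes and 8 of 10 T cell genes were called higher. The T cell genes summed to 114.7 and 119.2 FPKM in Ctrl and 157.6 and 209.2 in cKO. As in the B cell and dendritic cell sums and in *Itgal*, *Itgax* and *Itgb7*, cKO replicate 2 was highest. Of 6 neutrophil genes tested 5 were called higher and 1 lower, with sums of 29.46 and 26.58 FPKM in Ctrl and 40.08 and 38.8 in cKO. Of 10 macrophage genes 2 were called higher and 5 lower, and their sums were lower in both cKO libraries, at 763.3 and 632.0 FPKM in Ctrl and 599.4 and 569.9 in cKO. Of 6 dendritic cell genes 1 was called in each direction, and of 6 mast cell genes tested 2 were called lower and none higher. The part of these cells in the leukocyte integrin values was not tested.

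**Figure D4:**
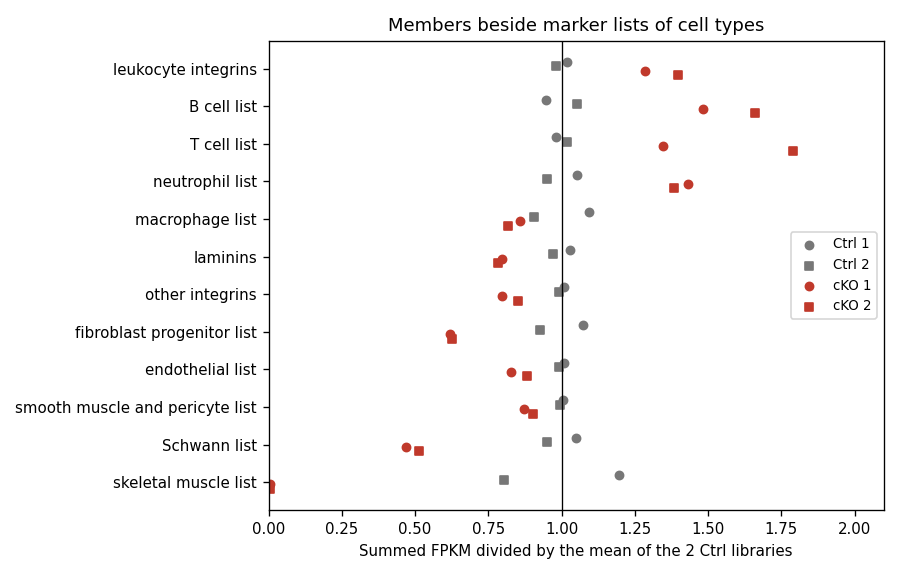
Summed FPKM of the members' groups and of marker lists, divided by the mean of the 2 Ctrl libraries (x axis, line at 1), for each library (grey Ctrl, red cKO, circles replicate 1, squares replicate 2). The leukocyte integrins lie at 1.29 and 1.40 in cKO, on the same side as the B cell, T cell and neutrophil lists. The sum of the macrophage list lies on the other side, at 0.859 and 0.817 in cKO, though 2 of its 10 genes were called higher and 5 lower. The laminins lie at 0.795 and 0.783 in cKO. The other integrins and the fibroblast, endothelial, smooth muscle and pericyte, Schwann, skeletal muscle and macrophage lists lie on that side too.

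Laminin networks are tied to collagen IV by nidogen and perlecan, and 15 such basement membrane partners were looked up. Of the 12 tested, 8 fell, 1 rose and 3 were not called, with a median log2 fold change of -0.38. Over all genes tested, 13.8% were called lower and 12.0% higher. *Nid1*, the nidogen that links laminin to collagen IV, fell from 91.61 and 85.81 FPKM to 50.95 and 50.85 (log2 fold change -0.79, standard error 0.0582, adjusted p = 0.000355 by limma), and *Nid2* from 9.02 and 9.36 to 5.18 and 4.99. *Col15a1*, a collagen at the outer face of basement membranes, fell from 42.54 and 38.79 FPKM to 23.20 and 25.70. *Npnt*, nephronectin, a ligand of α8β1, was the member of this list that rose, from 1.70 and 1.72 FPKM to 2.89 and 3.13 (log2 fold change 0.56, adjusted p = 0.00701).

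Laminin is also bound outside the integrins, by dystroglycan with the dystrophin complex and by syndecans. Of 13 such genes tested, 7 fell, 2 rose and 4 were not called (median log2 fold change -0.25). The shares over all genes tested were 13.8% called lower and 12.0% higher. *Sgca*, a sarcoglycan of striated muscle, fell from 2.60 and 1.62 FPKM to 0.13 and 0.10 (log2 fold change -1.46), *Sdc2* from 19.42 and 17.03 to 10.22 and 11.24 (-0.71), and *Dmd*, dystrophin, from 2.93 and 2.61 to 1.47 and 1.63 (-0.56). *Sdc4*, a syndecan of focal adhesions, rose from 15.56 and 14.36 FPKM to 24.46 and 22.06 (log2 fold change 0.60), and *Sdc3* from 29.14 and 26.46 to 34.00 and 33.00 (0.26). Syndecans thus stood on both sides. The skeletal muscle genes named above fell beside *Sgca* and *Dmd*, and their part was not tested.

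Among 10 integrin ligands tested outside the laminins, 4 rose, 2 fell and 4 were not called. Of all genes tested, 12.0% were called higher and 13.8% lower. *Spp1*, osteopontin, which αvβ3, α4β1 and α9β1 bind, rose from 3.69 and 2.18 FPKM to 11.50 and 8.44 (log2 fold change 1.49, standard error 0.199, adjusted p = 0.00243 by limma). *Thbs1*, thrombospondin, rose from 1.31 and 1.56 FPKM to 4.16 and 3.51, and *Icam1*, the ligand of LFA-1 on endothelium, from 15.97 and 16.85 to 18.97 and 22.70. The matrix ligands *Fbn1*, fibrillin, and *Fn1*, fibronectin, fell, from 14.44 and 12.30 FPKM to 8.79 and 8.55 and from 51.21 and 41.90 to 32.97 and 30.51.

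Of 27 tested adaptors and activators that join integrins to actin, 5 rose, 6 fell and 16 were not called. Their median log2 fold change was -0.09, and 12.0% of all genes tested were called higher and 13.8% lower. *Fermt3*, the kindlin of blood cells, rose from 15.55 and 15.93 FPKM to 22.09 and 23.32 (log2 fold change 0.50, adjusted p = 0.00186 by limma), and *Parvg*, the parvin of blood cells, from 8.05 and 8.17 to 11.57 and 13.35. Their relatives in most other cells, named here after their values were seen, went the other way, *Fermt2* falling from 41.31 and 43.18 FPKM to 34.61 and 35.53 (-0.26, adjusted p = 0.0158) and *Parva* from 32.78 and 33.20 to 26.16 and 26.26, while *Parvb* was not called. *Actn1*, an actinin that crosslinks actin, rose from 16.01 and 15.18 FPKM to 19.15 and 23.37. *Tln2*, the talin of muscle and brain, fell from 4.37 and 4.04 FPKM to 2.60 and 2.95, and *Itgb1bp1*, an inhibitor of β1 activation, from 25.28 and 24.15 to 17.49 and 20.01. *Tns1*, a tensin, fell from 126.54 and 127.57 FPKM to 100.02 and 99.57.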

How the data were processed

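Total RNA from ingWAT was selected for poly-A and sequenced as single-end reads of 50 bases on a BGISEQ-500. The submitters' processing notes name HISAT2 2.0.4, RSEM 1.2.12 and the mm10 build, and the authors deposited FPKM per gene for the 4 libraries without counts. The unit was read from the name of the deposited table, and its gene IDs were found in RefSeq for 18977 of 19030 genes, while 24 symbols in it had been turned into dates. Groups were taken from the labels. The values of 1 member are not reported here.

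Values were transformed as log2(FPKM + 1), the 12658 genes averaging 1 FPKM or more over the libraries were kept, and cKO was compared with Ctrl with limma 3.58.1 in R 4.3.3, with a trended prior, two-sided, with Benjamini-Hochberg adjustment over all genes tested and a threshold of 0.05. All adjusted p-values come from this fit or from its alternatives, and the fit was checked on simulated data. The rule for the members uses symbols alone, but this gene group and the lists were proposed with earlier results of these data known. Pathway lists are described by counts and a median, and cell type lists by counts or summed FPKM. No test was run on a list. Levels per library were printed for members called or with a mean of at least 5 FPKM and for some below that, and from each pathway list at most 3 called genes in each direction were named by size of change, besides the 3 adaptors that the text says were named after their values were seen. Coordinates, transcript lengths and overlaps come from RefSeq and GENCODE on GRCm38.p6. Alternatives varied the pseudocount, the filter, the scaling, the prior, the pairing of replicate numbers and the libraries used.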

Additional observations from a re-analysis of the deposited data

How the results depend on the processing

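Of the 16 members called, 5 were called under every one of the 12 alternatives that tested them (*Itga7*, *Itga11*, *Itgb2*, *Itgb5* and *Lamc1*, with *Itga11* not tested at a mean of at least 5 FPKM), none changed sign, and none of the 11 members not called was called under any. Without a filter on low values the calls over all genes went to 667 higher and 1095 lower, those of laminins to 3 lower, those of the leukocyte integrins to 1 higher and those of the other integrins to 0 higher (*Itga2b* at an adjusted p of 0.0894 by limma). With a mean of at least 5 FPKM the other integrins had 0 called higher, since *Itga2b* was no longer tested, and a median log2 fold change of -0.20, which was -0.04 after quantile normalization. Without a trended prior 2 leukocyte integrins were called higher. Leaving out each library in turn gave 358 to 1071 genes called higher and 519 to 1434 called lower, with the fewest of both without Ctrl replicate 1. It gave 1 to 5 laminins lower, 3 to 5 other integrins lower and 0 higher, and 1 to 4 leukocyte integrins higher, with medians of -0.15 to -0.06 for the other integrins and 0.28 to 0.54 for the leukocyte integrins. In those fits one group has 1 library, which is assumed to vary like the other group. With the replicate block, all 16 members stayed called and 1594 genes were called higher and 1789 lower, but same-numbered libraries did not deviate together (r = 0.015 across 12658 genes) and share only a number. Pseudocount and median-of-ratios scaling changed no member's call. Members averaging under 1 FPKM were left out by the filter, and read numbers are estimates.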
